A study of Drosophila melanogaster with 6 samples.

Results

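Spectraplakins, spectrins and nuclear linkers are proteins, many of them very long, that tie actin, microtubules, the plasma membrane and the nucleus to one another. The 7 genes described here are shot, alpha-Spec, beta-Spec, kst, Msp300, klar and koi, chosen by name for this function and taken from 17411 genes with an expression value. Leg discs of *Drosophila* at 0 h after puparium formation (APF) were dissociated, and GFP+ cells and input cells were sequenced as 3 mRNA libraries each. Both groups came from pooled discs of a single genotype, given as sr-gal4>UASGFP in the labels and as UAS-Lifeactin.GFP with sr-gal4 over the TM6b, tb balancer in the methods, so the actin reporter and the driver are shared by the input. GFP+ cells carry the fluorescence driven by an enhancer trap in stripe (sr), the gene of tendon fate. The study takes them as the precursors of the long leg tendons. Input cells were taken by the sorter before the GFP+ cells and regardless of fluorescence, hence they contain tendon precursors as well, and the order of sorting and the group cannot be told apart. The labels call them control.

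Expression was deposited as FPKM, reads scaled to transcript length and to library depth, with 1 value and its confidence bounds for each group. FPKM is scaled to length so that levels can be compared between genes. Here the ratio between the groups still changed with transcript length, as given below, so comparisons between genes of unlike length are approximate. With these values no test between libraries could be run. A gene is therefore called lower or higher here when its FPKM in GFP+ cells differed from that in input cells by more than 1.5-fold. The study used this fold on normalized counts, in the higher direction, to pick transcription factor genes with an FPKM above 10. Whether the bounds overlap is stated beside the calls. The bounds come from the program that computed the FPKM and are not an SD over replicates. All 7 genes passed a filter of an FPKM of at least 1 in the higher group, as did 9054 genes in all. Summed over genes, the mean normalized count was 31652166 per library.

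The identity of the sorted cells was checked on marker genes. In GFP+ cells the FPKM of sr was 54.5, against 6.59 in input cells. The cells were sorted on fluorescence driven from sr, so a high sr level was set by the sort and is a check of the sorting only. The tendon matrix gene Tsp had 345 and the tendon gene Lrt had 42.4 in GFP+ cells, against 59.0 and 14.0 in input cells, and the bounds of these 3 markers do not overlap between the groups. Of 7 myoblast markers, 6 were lower in GFP+ cells (twi, Mef2, zfh1, Him, htl and stumps) and sns was within 1.5-fold, and their summed FPKM was 17.3 in GFP+ cells, against 159.6 in input cells. The 4 neuron markers summed to 29.1 in GFP+ cells, against 23.4 in input cells, but they did not move together. nSyb (13.7 against 2.29) and Syt1 (4.27 against 1.66) were higher in GFP+ cells with bounds apart. elav was lower with bounds that overlap (10.1 against 18.6), and brp was within 1.5-fold (1.08 against 0.834). The 2 glia markers summed to 2.28 in GFP+ cells, against 4.12 in input cells. The sum was 1.38 in GFP+ cells, against 2.41 in input cells for the 4 hemocyte markers, with Hml, srp and NimC1 below an FPKM of 1 in both groups, and 7.86 and 24.9 for the trachea markers btl and trh, nearly all of it trh. In such bulk libraries, fewer cells of a type and less RNA per cell cannot be told apart, and the part of myoblasts or other cells in the differences below was not tested.

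Spectrins form a flexible net under the plasma membrane from dimers of an alpha chain and a beta chain. *Drosophila* has a single alpha chain, alpha-Spec, which pairs along the lateral membrane with beta-Spec and at the apical membrane with the heavy beta chain encoded by kst. Spectraplakins such as Shot join an actin-binding end to a microtubule-binding end, and in tendon cells Shot is known to help organise the microtubule arrays that resist muscle pull. Nuclear linkers span the nuclear envelope: a SUN protein of the inner membrane, here Koi, holds KASH proteins of the outer membrane, here Klar and the nesprin Msp300, which reach out to motors and to the cytoskeleton.

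In GFP+ cells, all 7 linker genes had a lower FPKM than in input cells. The genes separated into a group of 4, shot, kst, Msp300 and klar, which were lower by more than 1.5-fold with bounds that do not overlap, and a group of 3, alpha-Spec, beta-Spec and koi, whose ratios stayed within 1.5-fold and whose bounds overlap. No member was higher past this fold. Over all 9054 genes, 21.3% were lower past 1.5-fold and 19.3% were higher, while 12.6% were lower and 7.92% higher with bounds that do not overlap. The median log2 ratio of the 7 genes, GFP+ over input, was -0.76, and that of all genes was 0.03. These shares change strongly with transcript length, which sets the background for genes of this size: 11.2% of genes with a median annotated transcript under 2 kb were lower past 1.5-fold, 27.0% of those of 2 to 5 kb, 62.5% of those of 5 kb and over and 83.8% of the 74 genes of 10 kb and over. For long genes such as shot, kst and Msp300, a call of lower is one that most genes of that length received. With the length trend of all genes removed, 0 of the 7 were lower past 1.5-fold and 2 were higher, alpha-Spec and Msp300, while 14.8% of the 8870 genes with a length were lower and 14.0% were higher.

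**Figure D1:**
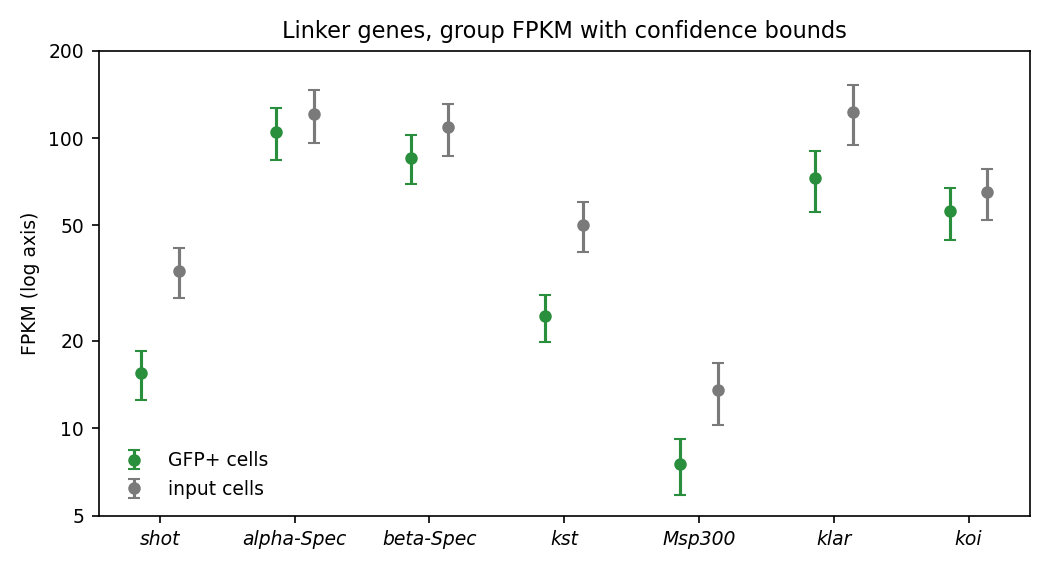
FPKM (log axis) of the 7 linker genes in GFP+ cells (green, left of each pair) and in input cells (grey, right). Points are the deposited group values and bars their confidence bounds; the bounds are apart for shot, kst, Msp300 and klar and overlap for alpha-Spec, beta-Spec and koi.

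shot (FBgn0013733), the spectraplakin gene, lies on the minus strand of chromosome 2R of dm6 from 13864237 to 13942110. Its FPKM was 15.5 in GFP+ cells (bounds 12.6 to 18.5), against 35.0 in input cells (28.1 to 41.8). The ratio was 0.445, a log2 ratio of -1.17 and the lowest of the 7, and the bounds allow a ratio of at most 0.660. The annotation gives shot 22 transcripts of 13.7 to 27.8 kb, with a median of 17.8 kb, that encode proteins of 4100 to 8805 amino acids. Among the 74 genes of 10 kb and over, 34 had a lower ratio than shot, so that it sits near the middle of the long genes. The median log2 ratio of those 74 genes was -1.15, just above that of shot. Relative to the trend of all genes with transcript length, the log2 ratio of shot was 0.18.

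kst (FBgn0004167, the gene karst) encodes the heavy beta spectrin of the apical membrane and occupies the plus strand of chromosome 3L from 3336860 to 3368133. It had an FPKM of 24.3 in GFP+ cells (19.8 to 28.9), against 50.4 in input cells (40.5 to 60.2), a ratio of 0.483 and a log2 ratio of -1.05. The 7 transcripts of kst are all long, from 13.0 to 13.8 kb. Among the 74 longest genes, 42 had a lower ratio than kst, and its log2 ratio exceeded the length trend by 0.16. Of the 3 spectrin genes, kst was the one called lower.

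alpha-Spec (FBgn0250789) lies on the minus strand of chromosome 3L from 1778485 to 1795328. Its FPKM was 105.3 in GFP+ cells (84.0 to 126.7), the highest level of the 7 genes in these cells, against 121.4 in input cells (96.5 to 146.2). The ratio was 0.868 and the log2 ratio -0.20. With a median transcript of 8.24 kb, alpha-Spec belongs to the 702 genes of 5 kb and over, among which the median log2 ratio was -0.73 and 572 genes (81.5%) had a lower ratio than alpha-Spec. Its log2 ratio lay 0.75 above the length trend, which is past 1.5-fold in the higher direction.

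beta-Spec (FBgn0250788), which encodes the ankyrin-binding beta chain of the lateral membrane, occupies the plus strand of chromosome X from 17657372 to 17669371. Its FPKM was 85.7 in GFP+ cells (69.2 to 102.2), against 108.8 in input cells (87.0 to 130.6), a ratio of 0.788 and a log2 ratio of -0.34. beta-Spec is close to alpha-Spec in transcript length, with a median of 7.72 kb, and it had a higher ratio than 532 of the 702 long genes (75.8%). The log2 ratio lay 0.57 above the trend, just inside 1.5-fold. Both chains of the lateral spectrin net were thus less reduced than most genes of their length, a description for which no test was available.

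Msp300 (FBgn0261836), the giant nesprin that is known in muscle for holding nuclei in place, occupies the plus strand of chromosome 2L from 5100877 to 5207002. It had the lowest level of the 7 genes, with an FPKM of 7.54 in GFP+ cells (5.91 to 9.18), against 13.5 in input cells (10.2 to 16.8). This is a ratio of 0.559 and a log2 ratio of -0.84. Msp300 has 11 annotated transcripts that run from 2.61 to 43.1 kb, and proteins of 407 to 13540 amino acids. It was less reduced than 51 of the 74 genes of 10 kb and over. Its log2 ratio lay 0.82 above the length trend, but only 4 genes have a median transcript over 20 kb, so that the trend is poorly held at this length. A small non-coding RNA gene (FBgn0065104) shares 157 exonic bases with Msp300 on the same strand and had a far larger FPKM, 121.4 in GFP+ cells, against 105.3 in input cells.

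klar (FBgn0001316, klarsicht) encodes a KASH protein that is known for moving nuclei in photoreceptors and for transport of lipid droplets. The gene lies on the minus strand of chromosome 3L from 434083 to 540614. Its FPKM was 72.9 in GFP+ cells (55.8 to 90.1), against 123.2 in input cells (94.3 to 152.2), a ratio of 0.592 and a log2 ratio of -0.76. With a median transcript of 6.87 kb, klar lay in the middle of the long genes: 341 of the 702 genes of 5 kb and over (48.6%) had a lower ratio, and its log2 ratio differed from the trend by 0.10. The gap between the 2 sets of bounds was narrow, from 90.1 in GFP+ cells to 94.3 in input cells.

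koi (FBgn0265003, klaroid) encodes the SUN protein that anchors Klar and Msp300 and is the shortest of the 7 genes, with a median transcript of 3.07 kb. It occupies the plus strand of chromosome 2R from 6811019 to 6818199. The FPKM was 56.0 in GFP+ cells (44.6 to 67.3), against 65.3 in input cells (52.2 to 78.4), a ratio of 0.857 and a log2 ratio of -0.22. Among the 3343 genes of 2 to 5 kb, 1709 (51.1%) had a lower ratio than koi. The log2 ratio was 0.09 above the length trend, so koi too followed the genes of its size.

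**Figure D2:**
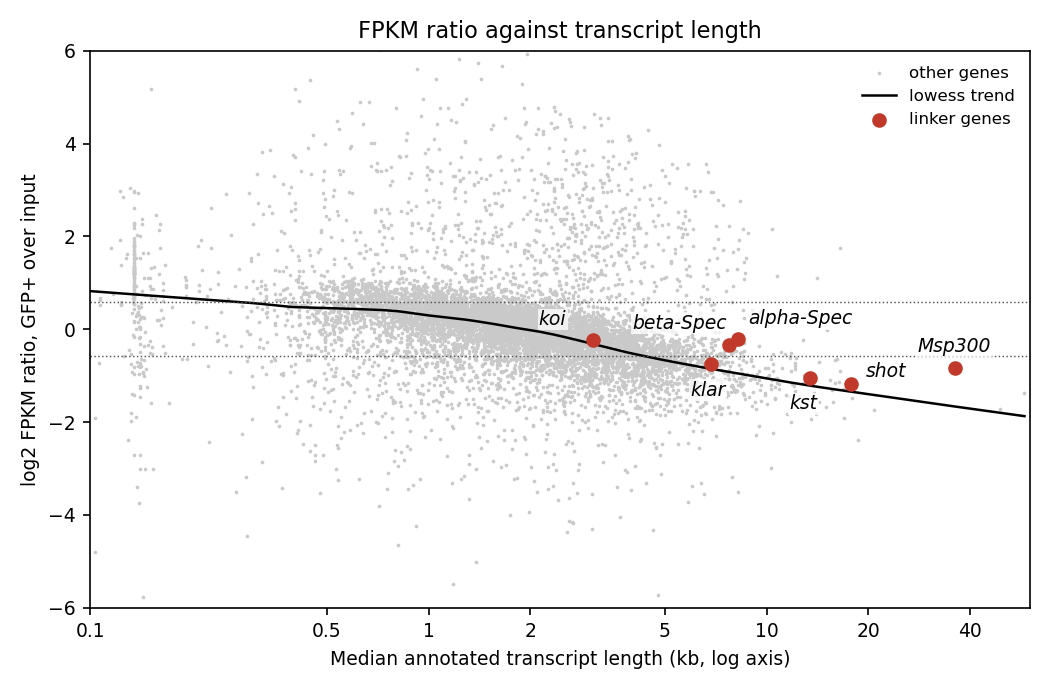
Log2 FPKM ratio, GFP+ over input, against the median annotated transcript length of the gene (kb, log axis). Grey points are the other genes past the filter, the line is the lowess trend, dotted lines mark 1.5-fold, and 21 genes lie outside the plotted range. shot, kst, klar and koi (red) lie within 0.2 of the trend, whereas alpha-Spec, beta-Spec and Msp300 lie 0.57 to 0.82 above it.

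The order of the levels was almost the same in the 2 groups. In GFP+ cells it ran from alpha-Spec over beta-Spec, klar, koi, kst and shot down to Msp300, a range of 14.0-fold. From alpha-Spec to koi, each gene has bounds that overlap those of the next and cannot be ranked against it. The bounds of alpha-Spec and of beta-Spec lie wholly above those of koi. Further down, koi exceeded kst by 2.30-fold, kst exceeded shot by 1.56-fold and shot exceeded Msp300 by 2.06-fold, with bounds apart. In input cells klar stood first, at 1.02 times alpha-Spec, with overlapping bounds, and the range was 9.13-fold. There, koi and kst, and kst and shot, overlap as neighbours. alpha-Spec exceeded shot by 6.78-fold in GFP+ cells and by 3.47-fold in input cells. The median transcripts of the pair are 8.24 and 17.8 kb, and the part of length in the change between the groups was not tested.

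Because alpha-Spec pairs with either beta chain, the balance of the chains was computed. The FPKM of beta-Spec and kst together was 1.04 times that of alpha-Spec in GFP+ cells (0.703 to 1.56 by the bounds), against 1.31 times in input cells (0.872 to 1.98). kst made up 22.1% of the 2 beta chains in GFP+ cells (16.2 to 29.4 by the bounds), against 31.6% in input cells (23.7 to 40.9). Both pairs of ranges overlap. For the sum over alpha-Spec, each group's value lies inside the range of the other group. For the share of kst, each group's value lies outside the range of the other group. The ranges combine opposite bounds of the genes and are no test of a shift. kst also has the longer transcript of the beta chains, and its part in this shift was not tested. A like sum, chosen after the values were seen, was made for the nuclear linkers. klar and Msp300 together had 1.44 times the FPKM of koi in GFP+ cells (0.916 to 2.22), against 2.09 times in input cells (1.33 to 3.24), again with ranges that overlap. The median transcript of klar, 6.87 kb, is longer than the 3.07 kb of koi, and the part of length was not tested here either. klar supplied most of the summed FPKM, at 9.66 times the FPKM of Msp300 in GFP+ cells and 9.13 times in input cells. These are values per gene, and which annotated transcripts they come from was not measured. The annotated proteins run from 511 to 2272 amino acids for klar and from 365 to 965 for koi.

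**Figure D3:**
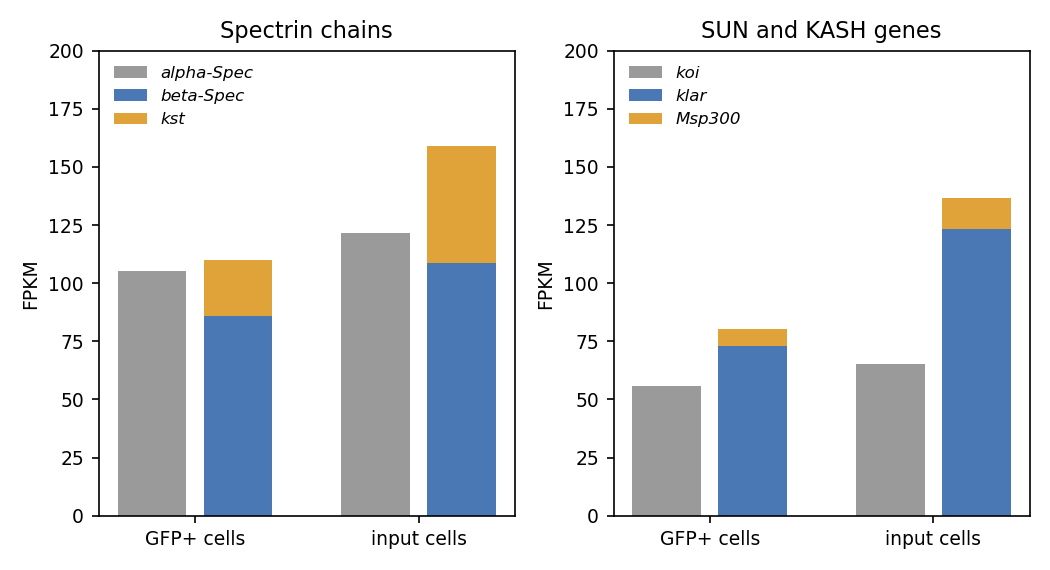
FPKM of alpha-Spec beside the stacked beta chains beta-Spec and kst (left), and of koi beside the stacked KASH genes klar and Msp300 (right), in GFP+ cells and in input cells. The stack on alpha-Spec is 110.0 in GFP+ cells, against 159.2 in input cells, and that on koi 80.5 and 136.8.

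The normalized counts of the 7 genes were high, although the depth of single libraries could not be read from the group values. The mean normalized count over all libraries ran from 4718 for koi to 33559 for alpha-Spec. If these were raw read counts, the counting error of the sum over the 6 libraries would be at most 0.594%. Raw counts were not available, and this figure leaves out variation between libraries. The deposited bounds lie 18.7% to 24.1% on either side of the FPKM. Mean normalized counts per unit of FPKM and per kb of median transcript were 31.2 for shot, 35.9 for alpha-Spec, 36.9 for beta-Spec, 35.9 for kst, 37.5 for Msp300, 32.3 for klar and 25.4 for koi. In 96 genes with a single annotated transcript of 5 kb or more, this quantity had a median of 31.3 and quartiles of 29.4 and 32.8. Msp300, beta-Spec, alpha-Spec and kst lay above the upper quartile, koi lay below the lower one, and shot and klar lay between them. Unlike these 96 genes, all 7 have several annotated transcripts. koi, with a median of 3.07 kb, is also shorter than the genes it is set against. Shared exonic bases were few, although whether the counting used strand is not stated. alpha-Spec has 130 exonic bases in common with dlt, on the same strand, which had an FPKM of 7.36 in GFP+ cells, against 5.51 in input cells. beta-Spec shares 164 bases with the opposite-strand gene CG12990, which had 0.0808 and 0.182. No protein-coding gene overlaps the exons of shot, kst, Msp300, klar or koi.

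The partners of the spectrin net were compared next. Of 7 genes in this list, 4 were lower in GFP+ cells past 1.5-fold with bounds apart (crb, Ank, Nrg and sdt), hts and cora were within 1.5-fold, and Ank2 was higher with bounds that overlap. Over all genes, 21.3% were lower past 1.5-fold and 12.6% were lower with bounds apart. The median transcripts of the 4 lower genes run from 5.23 to 7.69 kb, and 62.5% of genes of 5 kb and over were lower. With the length trend removed, 0 genes of this list were lower past 1.5-fold. The median log2 ratio of the list was -0.74, and -0.02 relative to the length trend. crb, which encodes the apical protein Crumbs that binds the heavy spectrin, had an FPKM of 40.7 in GFP+ cells, against 80.2 in input cells. Its ratio was 0.507, against 0.483 for kst. Relative to the length trend, the log2 ratio was -0.06 for crb and 0.16 for kst, so both lay near the genes of their length. sdt, the gene of its scaffold Stardust, had 24.0 and 42.8. On the lateral side, Ank, the ankyrin that ties beta-Spec to membrane proteins, had 69.8 in GFP+ cells, against 121.2 in input cells, and Nrg, an adhesion protein bound by ankyrin, had 83.4 and 139.4. hts, the adducin that caps spectrin-actin junctions, had 154.6 in GFP+ cells, against 129.2 in input cells, and cora, the protein 4.1 of septate junctions, had 81.5 and 81.7. Ank2, a mainly neuronal ankyrin, stood at 7.58 (1.79 to 13.4) in GFP+ cells and at 3.53 (0 to 7.46) in input cells. Among the neuron markers, nSyb had 13.7 and Syt1 had 4.27 in GFP+ cells, against 2.29 and 1.66 in input cells, while elav had 10.1 and 18.6; their part in the value of Ank2 was not tested.

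Among 7 partners and relatives of Shot, Dys and pigs were lower past 1.5-fold with bounds apart, and 5 were within this fold. The share of all genes that were lower past 1.5-fold was 21.3%, and 12.6% with bounds apart. It was 62.5% past 1.5-fold for genes of 5 kb and over, to which Dys and pigs belong. Dys, dystrophin, which like spectrin is built of spectrin repeats, had an FPKM of 16.4 in GFP+ cells, against 34.5 in input cells. Its ratio was 0.474, and its median transcript of 10.6 kb is shorter than those of shot and kst. pigs, which encodes another protein with the microtubule-binding Gas2 domain of Shot, had 2.19 and 4.33. Patronin, a minus-end protein that Shot recruits in the fly oocyte, had 23.4 in GFP+ cells, against 34.2 in input cells, and Dg, dystroglycan, had 55.5 and 72.1. Eb1, the plus-end protein that binds Shot, was abundant, at 211.5 and 234.7. Actn, alpha-actinin, had 55.8 and 64.8, and mys, the beta integrin of tendon attachments, had 96.2 and 116.0. The list had a median log2 ratio of -0.38, and of 0.21 relative to the length trend.

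For the nuclear envelope, 7 of 8 listed genes passed the filter. spag4, the other SUN gene, known from spermatids, did not pass, with an FPKM of 0.0492 in GFP+ cells, against 0.0522 in input cells. Of the 2 SUN genes, koi alone passed. LamC, an A-type lamin, was the gene called higher, at 10.3 FPKM in GFP+ cells (6.33 to 14.2) and 3.13 in input cells (0.510 to 5.76), a ratio of 3.28 with bounds apart. Lam, the B-type lamin, was far more abundant and within 1.5-fold, at 203.4 in GFP+ cells, against 257.3 in input cells. LBR, the lamin B receptor, was lower, at 36.8 and 56.6. Over all genes, 19.3% were higher past 1.5-fold and 21.3% were lower. Torsin, an ATPase of the nuclear envelope, had 126.4 in GFP+ cells, against 90.4 in input cells, and the LEM domain genes Ote, bocks and MAN1 were within 1.5-fold as well. The median log2 ratio of the 7 genes was 0.14, and 0.01 relative to the length trend, and their median transcripts are short, 1.28 to 3.21 kb.

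Of 8 genes that move and position nuclei, 4 were lower past 1.5-fold (ens, nudE, Dhc64C and BicD) and 4 were within it. The share of all genes that were lower past this fold was 21.3%. ens, the MAP7 protein that acts with kinesin in spacing muscle nuclei, had an FPKM of 30.9 in GFP+ cells, against 61.9 in input cells, a ratio of 0.499. Dhc64C, the dynein heavy chain, had 27.8 and 45.0, and nudE, a dynein regulator, had 19.4 and 31.9. BicD, a dynein adaptor, had 27.4 in GFP+ cells, against 42.8 in input cells, with bounds that overlap. The kinesin genes Khc and Klc had 69.0 and 79.6 in GFP+ cells, against 74.3 and 64.9 in input cells, and Lis-1 and DCTN1-p150 were within 1.5-fold too. This list had a median log2 ratio of -0.38, and of 0.21 relative to the length trend. nudE and ens had log2 ratios of -0.71 and -0.44 relative to the trend, the lowest of the 4 lists. With the trend removed, which was added after the data were seen, nudE was the 1 gene of the 4 lists still lower past 1.5-fold.

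**Figure D4:**
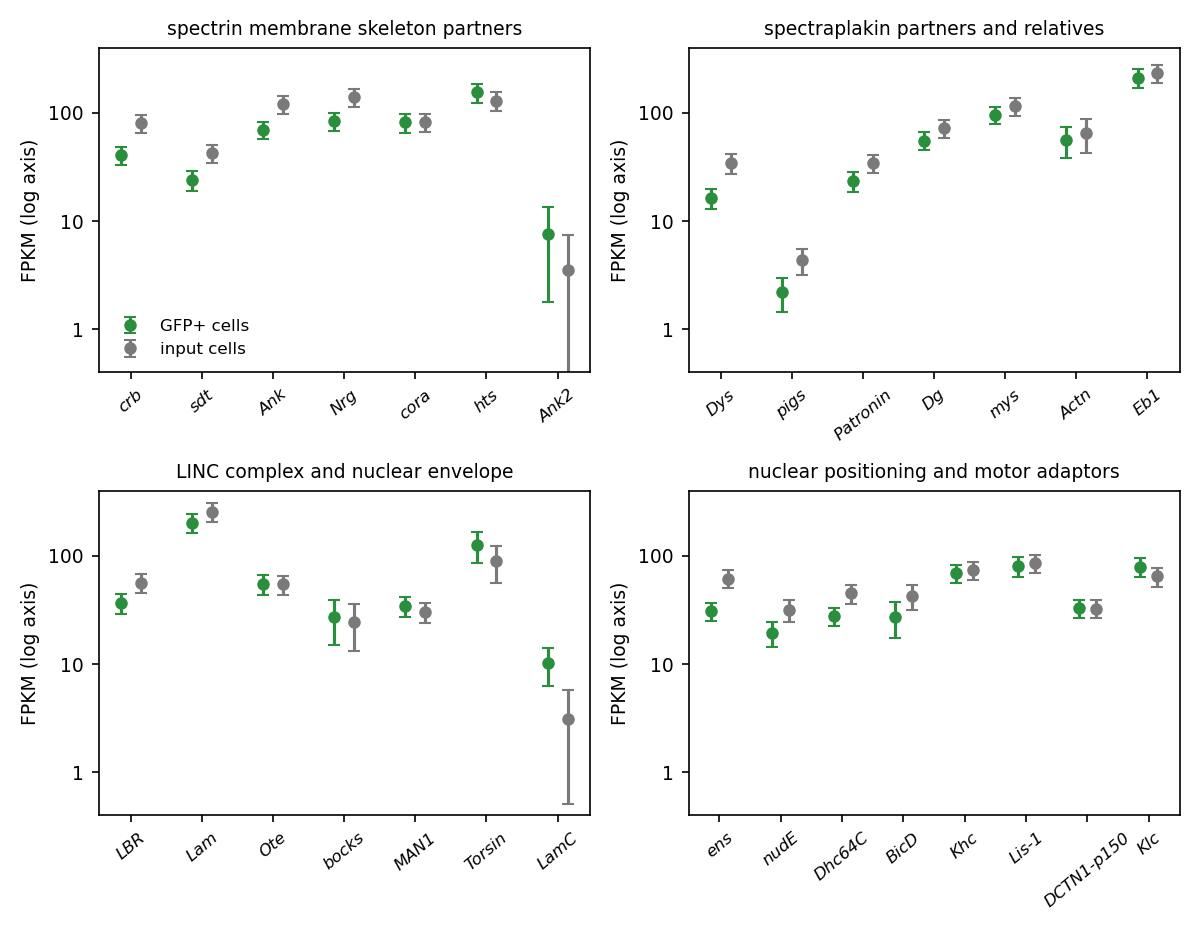
FPKM (log axis) of the partner genes that passed the filter, in GFP+ cells (green, left of each pair) and input cells (grey, right), ordered in each panel by their ratio. Points are group values and bars the deposited bounds; the lower bound of Ank2 in input cells is 0 and runs off the axis. crb, sdt, Ank, Nrg, Dys, pigs, LBR, ens, nudE and Dhc64C have bounds apart in the lower direction and LamC in the higher direction.

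The gene closest to each member was sought among 4944 named genes by the distance between their log2 FPKM values in the 2 groups. These neighbours share the level and ratio only. They were gpp for shot (an FPKM of 15.4 in GFP+ cells, against 35.2 in input cells), lid for kst (24.1 and 49.8), Hsc70-5 for alpha-Spec (108.1 and 119.0), Mo25 for beta-Spec (87.1 and 109.2), bves for Msp300 (7.37 and 13.2), nocte for klar (71.1 and 120.8) and Actn for koi (55.8 and 64.8). The distance was at most 0.05 on the log2 scale, over 2 group values. Their median transcripts, of 2.08 to 8.39 kb, were shorter than those of the members they match for 5 of the 7, with nocte and Actn the exceptions.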

How the data were processed

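Leg disc cells at 0 h APF were profiled in 3 GFP+ and 3 input libraries (oligo-dT priming, single-end reads). The submitters' processing notes name Trimmomatic 0.32, Bowtie2 2.1.0, Cufflinks 2.2.1, DESeq2 1.2.8 and dm6, and the read counter and the annotation release are not given in the sources used here. The authors deposited FPKM values with confidence bounds, 1 per group, in the layout of Cufflinks, whereas the paper names DESeq2 for FPKM. Of the authors' comparison table, which also holds fold changes, standard errors, statistics and p-values of GFP+ over input, only the mean normalized count (a deposited signal over all libraries) and the gene identifiers were used.

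Ratios of group FPKM were computed without a pseudocount for 9054 genes with an FPKM of at least 1 in the higher group and a status of OK. Calls use 1.5-fold. The FPKM table holds values per group, so no test, per-library spread or depth was computed from it, and the authors' test was left unused. Transcript lengths, coordinates and coding lengths came from Ensembl 115, whose assembly is dm6. Of the 9054 genes, 8870 had a length. Of 17138 gene identifiers matched to Ensembl 115, 10085 had the same locus as in the deposited FPKM values. The lengths used here can therefore differ from those behind the FPKM. The length trend was a lowess curve with a span of 0.3 (statsmodels 0.14.6). It was tested on data simulated with a trend that is straight in log length. The error of the curve was not scored for the longest genes, so the test does not show how well it holds for shot, kst and Msp300. Python 3.11.15, pandas 2.3.3, numpy 2.4.6 and matplotlib 3.10.9 were used. bocks and DCTN1-p150 were matched by gene ID. Members and lists were chosen with earlier results of these data known. Named are the members, the listed partners and, for each member, the gene nearest in level; partners were to be up to 4 per list by size of ratio, and the rest were added to account for each list. Other thresholds, filters, a pseudocount, centring and removal of the trend were the alternatives.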

Additional observations from a re-analysis of the deposited data

How the results depend on the processing

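Removal of the length trend changed the calls of the 7 genes most. The members called lower went to 0 and those called higher to 2 (alpha-Spec and Msp300), with either the median or the longest transcript as the length, against 4 and 0 without removal. The log2 ratios became 0.18 and 0.35 for shot, 0.16 and 0.15 for kst, 0.82 and 0.87 for Msp300 and 0.10 and 0.19 for klar, 0.75 and 0.72 for alpha-Spec, 0.57 and 0.55 for beta-Spec and 0.09 and 0.27 for koi, with the median and the longest transcript in that order, so that the sign turned for all 7. Without removal, the log2 ratios of shot and klar, -1.17 and -0.76, were just below the medians of their length classes, -1.15 and -0.73. The positive sign for both thus depends on the curve used as the background. At 2-fold, 2 members were lower (shot and kst). Centring, a pseudocount of 1, the filters and the overlap of bounds left the members' counts at 4 lower and 0 higher. Over all genes, 1930 were lower and 1743 higher; these counts were 941 and 934 at 2-fold, 1268 and 919 with an FPKM of at least 10, and 1144 and 717 by bounds that do not overlap. With the trend removed, 1311 were lower and 1241 higher for the median transcript and 1252 and 1263 for the longest, and without a filter 2747 were lower and 2854 higher. In an alternative added after the data were seen, removal of the trend gave, for the partner lists, 0 lower and 3 higher genes for the spectrin net (4 and 1 before), 0 lower for Shot (2 before), 0 lower for the nuclear envelope (1 before), and 1 lower and 1 higher for nuclear positioning (4 and 0 before). No paired analysis was possible because the tables hold 1 value per group, and for the same reason no library could be left out.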
